A study of Mus musculus with 29 samples.

Results

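Whole-colon RNA from 4 TRUC mice was set directly against whole-colon RNA from 3 mice labelled anti-CD40, 7 of the 29 mice in the series. The mice were chosen by their group labels and no measured value was used, and all 18616 genes that passed a filter on low counts entered the comparison. TRUC mice are labelled Balb/C with deletions of Tbx21, which encodes the transcription factor T-bet, and of Rag2, which is needed to make T and B cell receptors; they received no treatment and develop colitis on their own. The mice labelled anti-CD40 are given as C57BL/6 with a deletion of Rag1, the partner of Rag2, and were killed 7 days after an intraperitoneal dose of 50 ug of agonist antibody. Each model has its own untreated controls, 3 Balb/C Rag2-/- mice and 3 mice labelled C57BL/6 Rag1-/-. By label, all 13 of these mice lack T and B cells, so both are models of innate colitis. The labels give no age for any group, and the identifier of TRUC mouse 4, TRUC_8W, is not explained in them. Strain, the Rag gene deleted, the Tbx21 deletion, and the origin and length of disease all differ by label between the models and cannot be told apart in a direct comparison.

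Colitis in TRUC mice is a chronic disease of the distal colon that depends on the gut microbiota, and in which innate lymphoid cells, dendritic cells and tumour necrosis factor are known to take part. An agonist antibody to CD40 instead acts on the receptor that activated T cells would normally engage on dendritic cells, macrophages and B cells, and the disease that follows is acute. In both, cytokines such as interleukin-12, interleukin-23, interleukin-22 and interferon-gamma act on the epithelium and on recruited phagocytes. Neutrophils are drawn into the gut by chemokines that bind CXCR2, monocytes by ligands of CCR2, and activated lymphocytes by the interferon-induced ligands of CXCR3. The direct comparison asks which of these programmes differ in size between a spontaneous and an antibody-induced form of innate colitis.

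Genes that carry the deletions and the strain were read before any comparison. Rag1 was at 0 to 0.275 CPM (counts scaled to a common library total, corrected for composition) in both models. Rag2 was at 5.13 to 6.93 CPM in TRUC mice and at 3.44 to 8.49 CPM in the libraries labelled Rag1-/- and treated with anti-CD40. The Rag2-/- controls had Rag1 at 0 to 0.177 CPM and Rag2 at 1.13 to 2.21 CPM. The untreated Rag1-labelled libraries had Rag1 at 0 to 0.295 CPM and Rag2 at 0.442 to 1.72 CPM. In the T-cell transfer libraries Rag1 was at 1.85 to 2.88 CPM and Rag2 at 0 CPM. H2-Ea-ps was at 168 to 236 CPM in the anti-CD40 libraries, 243 to 318 CPM in TRUC libraries and at most 0.0762 CPM in the wild-type libraries. Of 11 genes present in every TRUC and Rag2-/- control library but absent from every wild-type and T-cell transfer library, all 11 were present in every anti-CD40 library, and 10 were present in every untreated Rag1-labelled library. Of 7 genes with the reverse pattern, 0 were present in every anti-CD40 library, and 6 were at 3 counts or fewer in each of them. In these genes the libraries labelled C57BL/6 Rag1-/- stood with the Balb/C Rag2-/- mice and apart from the T-cell transfer libraries, which carry the same strain and Rag1-/- labels. The wild-type libraries are labelled Balb/C, yet they lacked H2-Ea-ps and carried Raet1e at 10.5 to 12.2 CPM, as the T-cell transfer libraries did, so by label the pattern does not follow strain. In Rag1 and Rag2, too, the anti-CD40 libraries and their controls stood with the Rag2-/- mice. The differences of strain and Rag gene between the models therefore rest on the labels alone, and the reads of these genes did not show them. Which labels are right was not tested. The libraries in question are called the libraries labelled anti-CD40 and the Rag1-labelled controls throughout. Tbx21 itself was at 2.43, 4.63, 3.21 and 2.12 CPM in TRUC mice and 0.564, 0.772 and 0.861 CPM in the anti-CD40-labelled mice (2.05 ± 0.52 log2, adjusted p 0.0163), a call that was lost without TRUC mouse 3, anti-CD40 mouse 6 or anti-CD40 mouse 8. Reads were therefore assigned to the targeted gene in TRUC mice, and the labels do not say which exons the deletion removes.

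**Figure D1:**
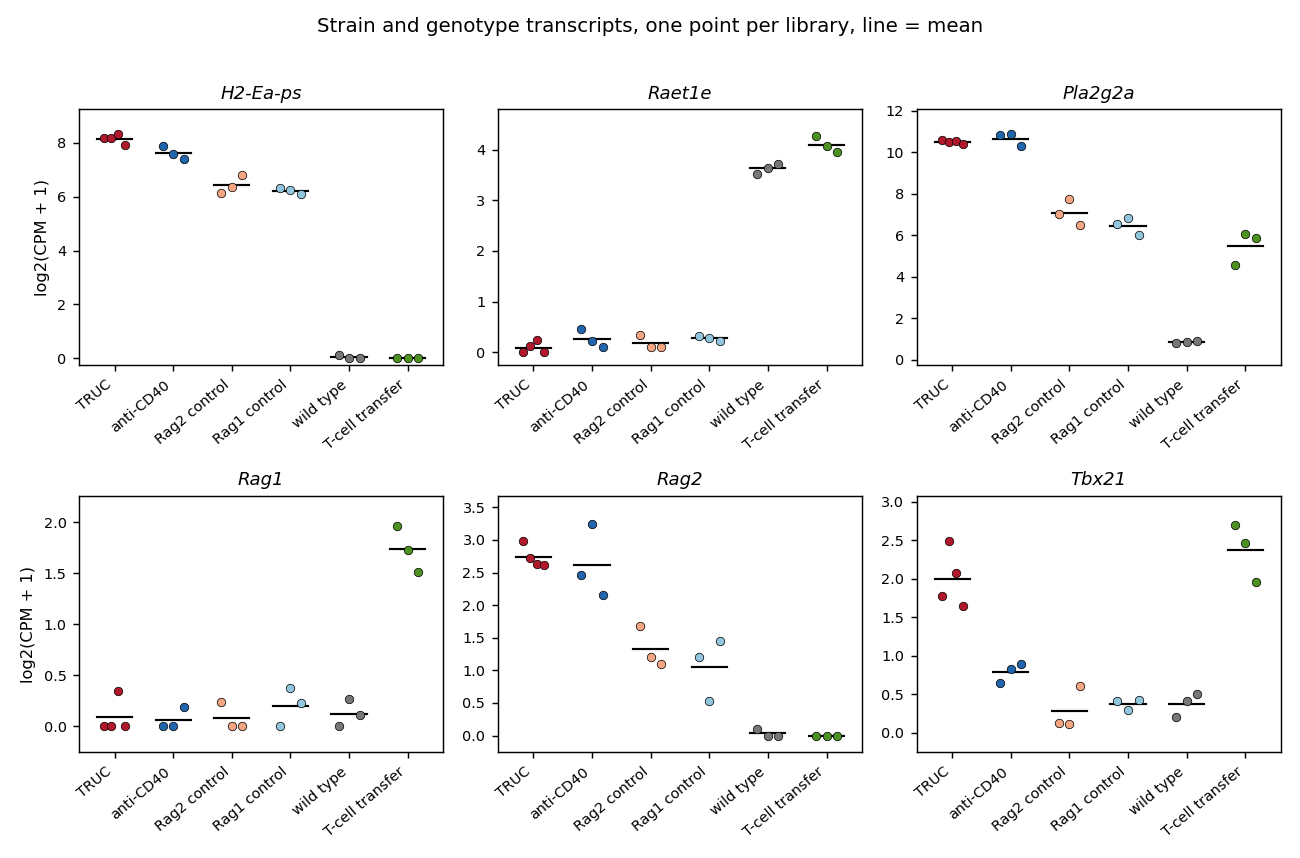
Levels of 6 genes that bear on genotype and strain, 1 panel per gene, with log2(CPM + 1) on the vertical axis, 1 point per mouse and a line at the mean of each of 6 groups. H2-Ea-ps sits at 168 to 236 CPM in the anti-CD40-labelled mice, close to TRUC mice and far above wild-type mice, and Tbx21 is higher in TRUC mice than in the anti-CD40-labelled mice.

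Sequencing depth did not separate the models, with 12040245 to 14317858 counts per TRUC library and 11079556 to 14266555 per anti-CD40 library. Markers of epithelium and smooth muscle were present in every library, and T cell markers were low, with at most 0.178 CPM of Cd3e and 1.74 CPM of Cd3g in the 7 mice. Of 14 T cell genes, 5 were above own controls in TRUC (22.4% of all genes were) and 0 in the anti-CD40-labelled mice (10.9% of all genes were). Anti-CD40 mouse 8 stood apart from mice 6 and 7. Its 10 smooth muscle genes summed to 8336 CPM against 3291 and 3963 CPM in the others, and its 11 enteric neuron and glia genes to 108 CPM against 41.3 and 55.9 CPM. The same sums were 3524 to 5238 CPM and 47.8 to 75.4 CPM in TRUC mice. Where a named gene lost its call without mouse 8, this is said beside it. Some calls, such as those of Cxcl2, Cxcl3, Cxcr2 and S100a8, were lost without that mouse alone. Others were also lost without other single mice, and only 49 of 112 named genes kept theirs whichever mouse was left out. The part of tissue composition in any result was not tested. In whole tissue, fewer cells of a type and less RNA per cell cannot be told apart.

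Both models moved far from their own controls, and less far from each other. Between TRUC and anti-CD40-labelled mice, 1691 genes (9.08% of those tested) passed an adjusted p of 0.05 in edgeR's quasi-likelihood test, of which 817 (4.39%) were higher in TRUC and 874 (4.69%) were higher in the libraries labelled anti-CD40. Of these, 373 and 255 differed by 2-fold or more. Groups did not overlap for 5539 genes (29.8%), and for 1611 genes (8.65%) they did not overlap and the test was passed. By comparison, 8524 genes (45.8%) differed between TRUC mice and Rag2-/- controls and 4015 (21.6%) between the anti-CD40-labelled mice and Rag1-labelled controls. Between the untreated control groups, 23 genes (0.124%) differed, 10 (0.0537%) higher in Rag2-/- and 13 (0.0698%) higher in Rag1-labelled mice, and 5 of them also differed between the models in the same direction (Exoc6 and Mbnl1, higher in TRUC, and Samd1, Wdr90 and Ubqln4). Each of these 5 lost the direct call without anti-CD40 mouse 8. Each model's own controls were then subtracted before comparing the models. This contrast has a wider error, uses the same diseased mice and is called the difference of changes here. It left 205 genes (1.1%), 98 higher in TRUC and 107 higher in the anti-CD40-labelled mice. Among lists described below, it called 0 of 18 neutrophil genes and 0 of 18 monocyte and macrophage genes. It also called 0 of 13 goblet cell genes and 0 of 12 stem cell and Wnt target genes. It called 2 of 12 dendritic cell genes and 2 of 19 antimicrobial genes, all higher in TRUC. Leaving out anti-CD40 mouse 8 lowered the direct counts to 203 higher in TRUC and 183 higher in the libraries labelled anti-CD40, the largest effect of any single mouse. Log2 fold changes below are TRUC over anti-CD40, with their standard errors, so that positive values are higher in TRUC. Their median over all genes was 0.01. Each standard error was obtained by dividing the absolute log2 fold change by the square root of F in the quasi-likelihood test.

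**Figure D2:**
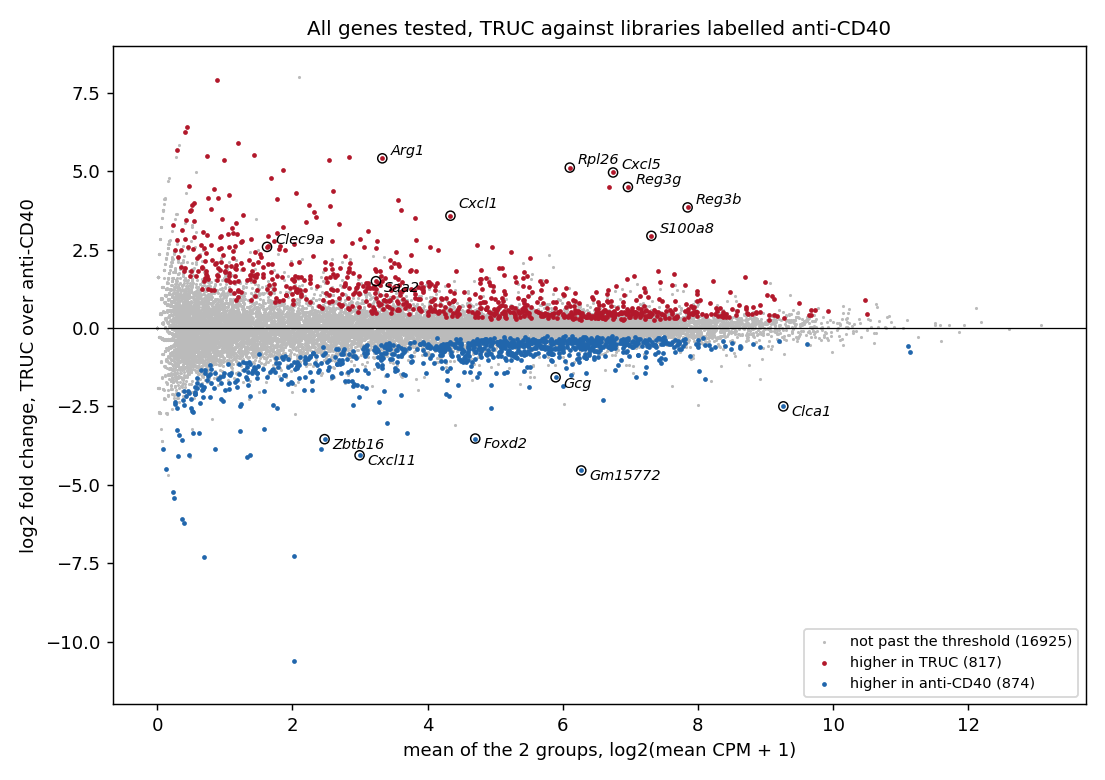
Log2 fold change of TRUC over anti-CD40-labelled mice (vertical axis) against mean log2 CPM (horizontal axis) for the 18616 genes tested, with genes at adjusted p under 0.05 coloured by direction. The 817 genes higher in TRUC and 874 genes higher in the anti-CD40-labelled mice are spread over the range of expression, and the largest differences include Cxcl5 above and Cxcl11 below.

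The neutrophil-recruiting chemokines and their receptors had the largest median difference of the lists examined. Of 6 measured members of the list of CXCR2 ligands and receptors, 5 were higher in TRUC (83.3%, against a background of 4.39% of all genes), with a median log2 fold change of 3.74. Cxcl5, an epithelial and stromal CXCR2 ligand (chr5:90759360-90761624), was at 585, 709, 719 and 317 CPM in TRUC mice 2, 3, 4 and 5 and at 11.6, 38.1 and 6.53 CPM in anti-CD40-labelled mice 6, 7 and 8. Every TRUC mouse lay above every anti-CD40-labelled mouse (4.96 ± 0.64, adjusted p 4.55e-05). In the 6 control mice Cxcl5 had at most 3 counts, so both models were above their controls and TRUC further above. In the difference of changes, 0 of the 6 list members passed (1.1% of all genes did), and their median was 3.70. Cxcl1, the keratinocyte-derived chemokine of the mouse, was at 72.7, 54.3, 80.2 and 48.0 CPM in TRUC and 3.38, 9.43 and 3.16 CPM in the anti-CD40-labelled mice (3.58 ± 0.61, adjusted p 0.000937).

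Cxcl2 and Cxcl3, which encode macrophage inflammatory protein 2 and a close relative, lie with Cxcl1 and Cxcl5 in the CXC cluster on chromosome 5. Levels of Cxcl2 were 38.3, 47.6, 54.2 and 26.1 CPM in TRUC against 2.91, 6.77 and 1.36 CPM (3.51 ± 0.84, adjusted p 0.0119). Cxcl3 was at 35.7, 49.2, 61.7 and 14.7 CPM against 1.503, 4.37 and 1.29 CPM (4.08 ± 0.81, adjusted p 0.00547). Their receptor, Cxcr2, carried by neutrophils, was at 15.04, 23.6, 17.6 and 7.33 CPM against 0.282, 2.49 and 0.431 CPM (3.89 ± 0.82, adjusted p 0.00791). In each of these genes mouse 7 was the highest of the anti-CD40-labelled mice and still lay below the lowest TRUC mouse. Cxcl5 and Cxcl1 passed the test whichever mouse was left out (highest adjusted p 0.00115 and 0.0154). Without anti-CD40 mouse 8 the adjusted p was 0.0954 for Cxcl2, 0.0501 for Cxcl3 and 0.0651 for Cxcr2.

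Since Cxcl1, Cxcl2 and Cxcl3 moved together, their promoters are shown. The 300 bases around each annotated start (RefSeq sequence, GRCm38.p6, plus strand) all hold the run in capitals, which matches the kappa B motif of NF-kappaB factors (GGGA, any 2 bases, TTCC) at 2 overlapping positions, 1 on each strand. Searched on both strands, the motif was found in 387 of 27025 mouse promoter windows of this length (1.43%).
Cxcl1 promoter, chr5:90890995-90891294, motif from position -71 relative to the start: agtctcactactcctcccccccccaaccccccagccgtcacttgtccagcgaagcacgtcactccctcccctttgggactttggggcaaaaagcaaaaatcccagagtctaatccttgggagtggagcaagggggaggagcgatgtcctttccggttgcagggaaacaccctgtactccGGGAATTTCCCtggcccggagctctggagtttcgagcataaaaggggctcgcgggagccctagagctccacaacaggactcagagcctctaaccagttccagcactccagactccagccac
Cxcl2 promoter, chr5:90903649-90903948, motif from position -97: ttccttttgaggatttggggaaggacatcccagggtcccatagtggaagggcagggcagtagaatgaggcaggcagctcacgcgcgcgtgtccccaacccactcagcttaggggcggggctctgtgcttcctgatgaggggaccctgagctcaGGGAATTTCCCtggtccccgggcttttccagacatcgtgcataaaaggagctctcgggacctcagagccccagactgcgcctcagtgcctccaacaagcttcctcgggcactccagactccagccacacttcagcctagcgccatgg
Cxcl3 promoter, chr5:90785851-90786150, motif from position -73: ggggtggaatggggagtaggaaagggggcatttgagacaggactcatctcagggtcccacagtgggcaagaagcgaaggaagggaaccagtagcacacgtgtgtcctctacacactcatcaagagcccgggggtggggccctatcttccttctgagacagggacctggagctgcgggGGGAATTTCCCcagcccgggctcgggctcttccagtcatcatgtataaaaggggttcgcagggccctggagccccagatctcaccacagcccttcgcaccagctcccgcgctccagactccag
A match of letters is a description of these windows only. The windows of Cxcr2 and of Il1b, which were also higher in TRUC, held no match to the motif. It was found in the windows of Gbp2, Gbp5, Cxcl10 and Il6, which were not called between the models.

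Genes of neutrophils themselves were also higher in TRUC, among them Cxcr2, which was already counted in the list above. Of 18 tested granule and surface genes, 6 were higher in TRUC (S100a8, S100a9, Csf3r, Cxcr2, Trem1 and Stfa2l1, 33.3% against a background of 4.39%), 0 were higher in the anti-CD40-labelled mice, and the median difference was 2.16. S100a9, a subunit of calprotectin, was at 395, 648, 507 and 347 CPM in TRUC and 7.33, 45.5 and 10.5 CPM in the anti-CD40-labelled mice (4.49 ± 0.79, adjusted p 0.00119). Its partner S100a8 was at 379, 518, 467 and 381 CPM against 19.2, 130.2 and 21.0 CPM (2.94 ± 0.68, adjusted p 0.00955). In S100a8, too, anti-CD40 mouse 7 was far above mice 6 and 8 and below all TRUC mice. Csf3r, the receptor for granulocyte colony-stimulating factor, differed by 2.60 ± 0.60, and Trem1, an amplifier of neutrophil and monocyte activation, by 3.22 ± 0.86. S100a9 held whichever mouse was left out, and the other 5 lost the call without mouse 8 (adjusted p 0.0812 for S100a8 and 0.139 for Trem1). Stfa2l1 shares sequence with other stefin genes, and its counts are uncertain for that reason.

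The surface marker Ly6g did not follow these genes. It was at 885, 844, 876 and 780.2 CPM in TRUC and 599.8, 696 and 520.5 CPM in the anti-CD40-labelled mice (0.48 ± 0.46, adjusted p 0.536), and it was already at 209 to 337 CPM in Rag2-/- controls and 151 to 292 CPM in Rag1-labelled controls, where S100a8 had at most 5 counts. Summed over the 18 tested genes and those below the filter, the neutrophil list was at 2329 to 3158 CPM in TRUC, 1013 to 1445 CPM in the anti-CD40-labelled mice and 249 to 437 CPM in the controls.

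**Figure D3:**
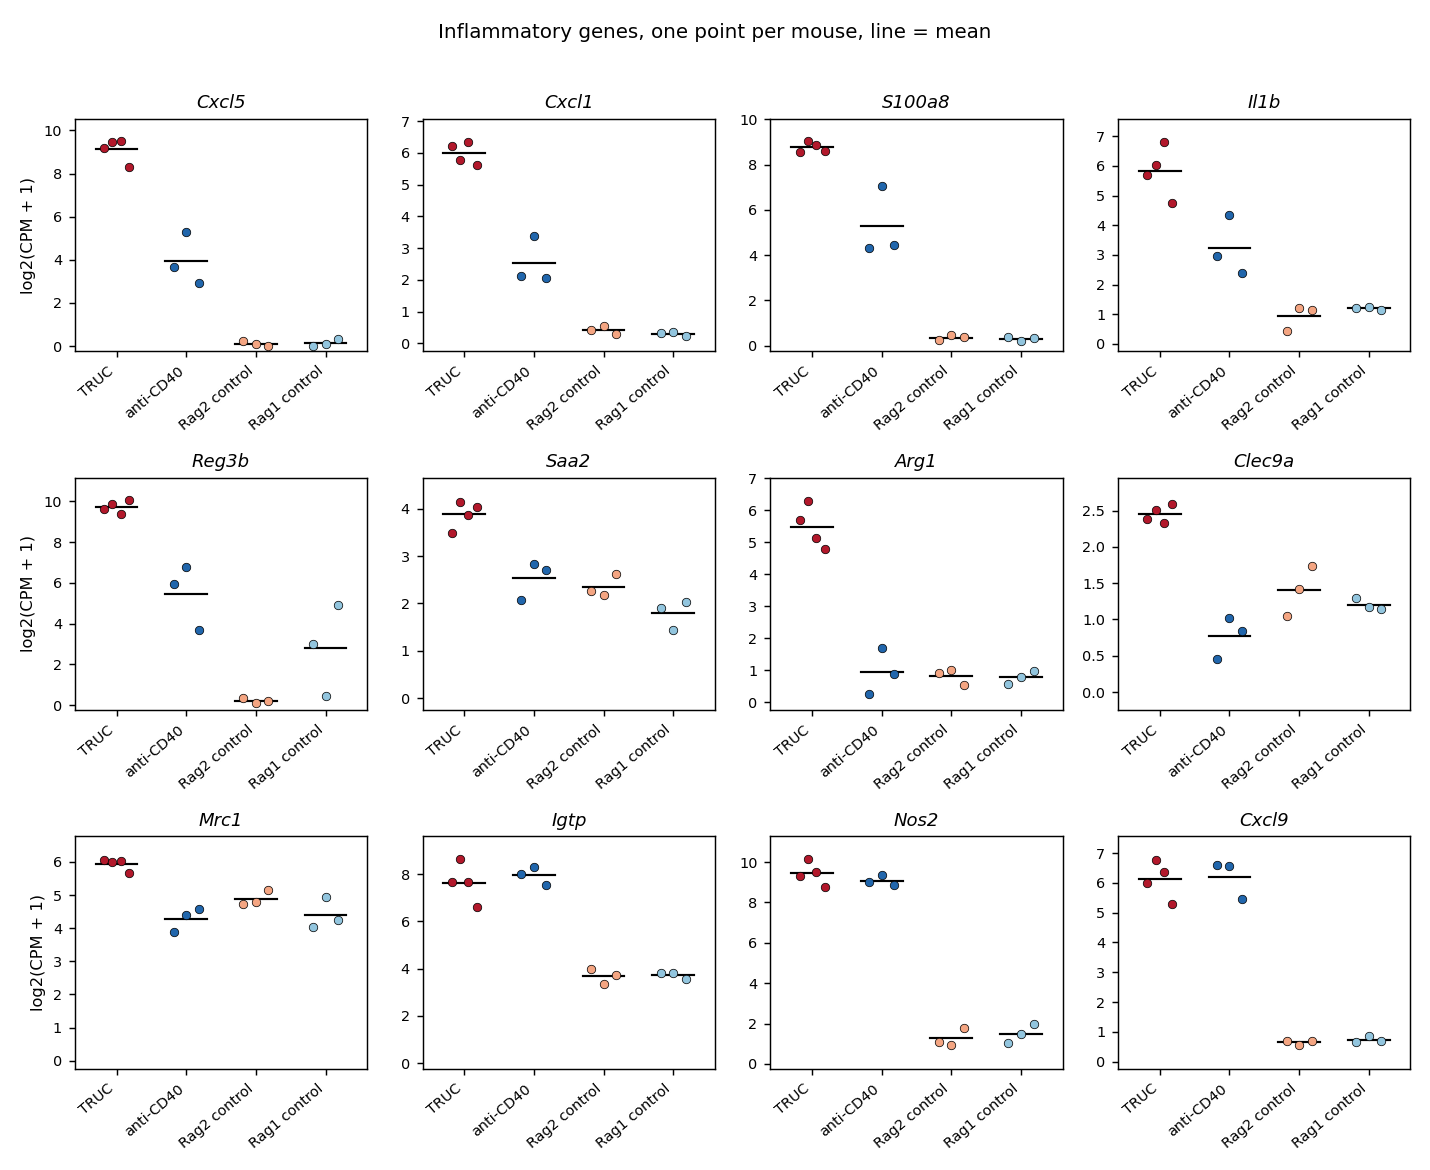
Levels of 12 genes in the TRUC and anti-CD40-labelled mice and their own controls, 1 panel per gene, with log2(CPM + 1) on the vertical axis, 1 point per mouse and a line at each group's mean. Cxcl5, Cxcl1, S100a8, Il1b, Reg3b, Saa2, Arg1, Clec9a and Mrc1 are higher in every TRUC mouse than in every anti-CD40-labelled mouse, whereas Igtp, Nos2 and Cxcl9 overlap between the models.

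Within the interleukin-1, interleukin-6 and oncostatin M list, 6 of 18 tested genes were higher in TRUC (33.3% against a background of 4.39%), 0 were lower, and the median difference was 1.67. The ligands among them were Il1b, Il33 and Il1f9, and the receptors Il1r1, Il1r2 and Il1rl1. Il1b, the product of inflammasome-activated phagocytes, was at 51.3, 63.8, 111 and 25.6 CPM in TRUC and 6.76, 19.3 and 4.23 CPM in the anti-CD40-labelled mice (2.65 ± 0.78, adjusted p 0.0356). Il33, an alarmin of epithelium and stroma, was at 12.5, 8.90, 9.90 and 5.94 CPM against 2.07, 3.34 and 2.08 CPM (1.90 ± 0.53), and its receptor Il1rl1, also called ST2, at 45.5, 44.0, 34.0 and 30.05 CPM against 1.32, 3.86 and 3.23 CPM (3.76 ± 0.64, adjusted p 0.000919). The ligand and its receptor were thus both higher in TRUC, the receptor by the wider margin. Il1f9, which encodes interleukin-36 gamma, was at 8.41, 18.1, 13.2 and 7.74 CPM in TRUC and 0.658, 1.89 and 0.215 CPM in the anti-CD40-labelled mice (3.70 ± 0.97, adjusted p 0.023).

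Receptors for interleukin-1 moved in the same direction. Il1r1, the signalling receptor, differed by 0.81 ± 0.20 and the decoy receptor Il1r2 by 2.12 ± 0.61. Of these 6 genes, Il1rl1 kept its call whichever mouse was left out, Il1r1 lost it without anti-CD40 mouse 7, and the adjusted p without mouse 8 was 0.202 for Il1b, 0.156 for Il33, 0.144 for Il1f9 and 0.166 for Il1r2. Without mouse 8 the calls of the list thus fell from 6 to 2. Il1b, Il33 and Il1r2 lost theirs without any 1 of 5 of the 7 mice. Osm, the oncostatin M gene, was at 1.99, 2.31, 4.03 and 0.896 CPM against 0.376, 1.03 and 0.144 CPM and did not pass the test (2.16 ± 0.93, adjusted p 0.142), and neither did Il6 (adjusted p 0.508), at 0 to 2.02 CPM over the 7 mice.

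Of 18 tested genes of the interleukin-23, interleukin-17 and interleukin-22 axis, 3 differed between the models (16.7% against a background of 9.08%). Il17c and Il22ra1 were higher in TRUC and Il17rc was higher in the anti-CD40-labelled mice. Il17c, an epithelial member of the interleukin-17 family, was at 5.53, 4.09, 8.43 and 1.63 CPM in TRUC and 0.376, 1.03 and 0.502 CPM in the anti-CD40-labelled mice (2.93 ± 0.50, adjusted p 0.000939), and held whichever mouse was left out. Il22ra1, which makes epithelial cells responsive to interleukin-22, differed by 0.58 ± 0.18 (adjusted p 0.0469), and the interleukin-17 receptor subunit Il17rc by -0.60 ± 0.16 (adjusted p 0.019). Both lost the call without mouse 8, and Il22ra1 lost it without any 1 of 5 of the 7 mice. The lymphoid cytokines themselves were scarce. Il22 was at 2.21, 1.87, 3.12 and 1.303 CPM against 0.939, 2.14 and 0.574 CPM with overlapping groups (0.81 ± 1.10, adjusted p 0.69). Il17a was at 0.295, 0.534, 0.458 and 0.570 CPM in TRUC and 0, 0.0857 and 0 CPM in the anti-CD40-labelled mice. The latter had 1 count or fewer per library. The groups did not overlap, but the difference did not pass in edgeR's test (adjusted p 0.292).

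Epithelial antimicrobial and acute-phase genes included abundant genes that were higher in TRUC. Of 19 tested, 4 were higher in TRUC (Reg3b, Reg3g, Saa2 and Plet1, 21.1% against a background of 4.39%), 0 were higher in the anti-CD40-labelled mice, and the median difference was 1.04. Reg3b, a bactericidal lectin induced by interleukin-22, was at 785, 943, 669 and 1068 CPM in TRUC and 60.9, 108 and 11.8 CPM in the anti-CD40-labelled mice (3.85 ± 1.11, adjusted p 0.0323). Anti-CD40 mouse 7 had the highest level of its group, and the lowest TRUC mouse lay above it. Reg3g, a relative that kills Gram-positive bacteria, was at 515, 695, 424 and 692 CPM against 21.9, 49.6 and 5.81 CPM (4.50 ± 1.10, adjusted p 0.0139). Saa2, a serum amyloid A gene, was at 10.2, 16.6, 13.6 and 15.5 CPM against 3.19, 6.09 and 5.53 CPM (1.49 ± 0.30, adjusted p 0.00401). Reads from Saa2 and Saa1 can share positions, so the split between these copies is uncertain.

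Saa2 held whichever mouse was left out, and without anti-CD40 mouse 8 the adjusted p was 0.172 for Reg3b and 0.0957 for Reg3g. Reg3b lost its call without any 1 of 5 of the 7 mice. Both Reg3 genes also passed in the difference of changes (9.98 ± 2.11 and 7.85 ± 1.93), where the Rag1-labelled controls were at 0.368 to 28.7 CPM of Reg3b and the Rag2-/- controls at 0.0765 to 0.266 CPM. With 3 counts or fewer in those Rag2-/- libraries, the fitted value for Reg3b depends on the prior count. Lcn2, the siderophore-binding marker of gut inflammation, was at 60.3, 121, 90.0 and 69.0 CPM in TRUC and 13.1, 21.8 and 25.4 CPM in the anti-CD40-labelled mice without overlap, and just missed the threshold (2.08 ± 0.69, adjusted p 0.0589). Saa3 was at 68.7 to 152 CPM against 23.8 to 36.8 CPM (adjusted p 0.192).

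Genes of mononuclear phagocytes were also higher in TRUC, with a smaller median difference than those of neutrophils. Of 18 tested monocyte and macrophage genes, 7 were higher in TRUC (Adgre1, Ccr2, Mrc1, C1qa, C1qb, Fcgr1 and Trem2, 38.9% against a background of 4.39%) and 0 were lower, with a median difference of 0.71. Adgre1, which encodes F4/80, was at 32.4, 32.6, 32.0 and 23.2 CPM in TRUC and 11.5, 13.5 and 9.83 CPM in the anti-CD40-labelled mice (1.37 ± 0.23, adjusted p 0.000921). Ccr2, the receptor that brings monocytes into tissue, was at 39.9, 52.0, 46.7 and 42.0 CPM against 16.1, 21.3 and 8.25 CPM (1.58 ± 0.30, adjusted p 0.00244). Mrc1, the mannose receptor of resident macrophages, was at 65.9, 62.7, 64.8 and 50.2 CPM against 13.6, 20.1 and 22.9 CPM (1.69 ± 0.30, adjusted p 0.00129). Adgre1, Ccr2, Mrc1 and Trem2 passed whichever mouse was left out, and C1qa, C1qb and Fcgr1 did not pass without mouse 8 (adjusted p 0.0916, 0.13 and 0.112). Summed levels of the list were 1533 to 1895 CPM in TRUC and 1277 to 1520 CPM in the anti-CD40-labelled mice, without overlap.

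Of 12 tested dendritic cell genes, 6 were higher in TRUC (Flt3, Xcr1, Clec9a, Batf3, Cd209a and Itgae, 50% against a background of 4.39%) and 0 were lower, with a median difference of 1.04. Their summed levels overlapped, at 101 to 129 CPM in TRUC and 73.1 to 115 CPM in the anti-CD40-labelled mice. Clec9a, the dead-cell receptor of cross-presenting dendritic cells, was at 4.20, 4.72, 4.03 and 5.05 CPM in TRUC and 0.376, 1.03 and 0.789 CPM in the anti-CD40-labelled mice (2.59 ± 0.36, adjusted p 0.000115). Xcr1, a chemokine receptor of the same cells, was at 5.16, 4.63, 3.30 and 1.95 CPM against 0.752, 0.857 and 0.574 CPM (2.37 ± 0.51), and Batf3, the factor they need to develop, differed by 1.14 ± 0.35. For Clec9a the change from own controls was 1.39 in TRUC and -0.81 in the anti-CD40-labelled mice, and the difference of changes was 2.21 ± 0.51 (adjusted p 0.0346). Cd209a, a lectin of monocyte-derived dendritic cells, had 47 counts over the 4 TRUC libraries and 3 over the 3 anti-CD40 libraries, a ratio at equal depth of 11.8 (exact 95% interval 3.81 to 59.4, covering counting error only). Clec9a, Cd209a and Itgae passed whichever mouse was left out. Without mouse 8 the adjusted p was 0.0581 for Xcr1, 0.151 for Flt3 and 0.108 for Batf3.

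Arg1, which encodes the arginase of type 2 and wound-associated macrophages, was among the 10 genes with the largest differences. It was at 51.0, 77.4, 34.3 and 26.9 CPM in TRUC and 0.188, 2.23 and 0.861 CPM in the anti-CD40-labelled mice (5.41 ± 1.06, adjusted p 0.00314), and held whichever mouse was left out (highest adjusted p 0.035). With Il1rl1 it made up the 2 of 10 tested type 2 genes that were higher in TRUC (20% against a background of 4.39%). Il5 and Il13 were too low to test. Of 5 tested eosinophil genes, Siglecf (1.22 ± 0.35, adjusted p 0.0286) and the eosinophil ribonuclease Ear2 (2.34 ± 0.43, adjusted p 0.0018) were higher in TRUC. That is 40% of those tested, against a background of 4.39%. All levels of Siglecf and Ear2 were below 6 CPM, Ear2 shares much of its sequence with related ribonucleases, and Siglecf lost its call without mouse 8. Of 8 tested mast cell genes, Kit alone passed (12.5% against a background of 4.69%). It was higher in the anti-CD40-labelled mice (-0.91 ± 0.25, adjusted p 0.0251). Kit also marks the pacemaker cells of gut muscle, and without mouse 8 its difference was -0.44 (adjusted p 0.374).

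The CD40 pathway, which the antibody engages, differed little at its receptor. Of 23 genes of the tumour necrosis factor and CD40 axis, Tnfsf14 and Cd86 were higher in TRUC. Relb was higher in the anti-CD40-labelled mice. In all, 13.0% of the list was called, against a background of 9.08%. Cd40 was at 5.38, 9.61, 7.06 and 3.42 CPM in TRUC and 6.76, 7.72 and 4.88 CPM in the anti-CD40-labelled mice (-0.02 ± 0.50, adjusted p 0.995). Relb, a subunit of the alternative NF-kappaB pathway that CD40 activates, was at 47.0, 45.2, 45.3 and 46.6 CPM against 75.4, 64.7 and 101 CPM (-0.81 ± 0.15, adjusted p 0.00186). It passed whichever mouse was left out and in the difference of changes (-0.89 ± 0.22, adjusted p 0.0447). Tnfsf14, which encodes the ligand LIGHT, was at 2.51, 3.83, 2.20 and 1.71 CPM in TRUC against 0.0939, 0.429 and 0.646 CPM (2.63 ± 0.66), and lost its call without TRUC mouse 3 or anti-CD40 mouse 6. Cd86, a costimulatory ligand, differed by 1.37 ± 0.43 (adjusted p 0.0483) and lost its call without any 1 of 6 of the 7 mice, mouse 8 among them. Tnf itself was at 44.98, 66.5, 35.003 and 18.7 CPM in TRUC and 15.03, 16.5 and 12.1 CPM in the anti-CD40-labelled mice, did not overlap, and did not pass (1.50 ± 0.66, adjusted p 0.153).

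Of 17 interferon-inducible GTPases, which defend cells against intracellular microbes, 16 were above own controls in TRUC and 17 in the anti-CD40-labelled mice, where 22.4% and 10.9% of all genes were, and 0 differed between the models in edgeR's test (lowest adjusted p 0.538). At an unadjusted p under 0.05 the count was also 0, and DESeq2, run as an alternative, called 1, higher in the anti-CD40-labelled mice. Their median change from own controls was 3.35 in TRUC and 3.73 in the anti-CD40-labelled mice, and the median direct difference was -0.18. Igtp, also called Irgm3, was at 203, 398, 202 and 95.6 CPM in TRUC and 253, 316 and 187 CPM in the anti-CD40-labelled mice (-0.17 ± 0.78, adjusted p 0.929). TRUC mouse 3 was the highest and TRUC mouse 5 the lowest of the 7, so that the TRUC mice spanned the whole anti-CD40 group. A 2-fold difference in either direction lies within 2 standard errors of the estimate for Igtp.

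The promoter of Igtp is shown as an example of the family (chr11:58199306-58199605, plus strand, GRCm38.p6). Its capitals mark, in this order, the interferon-gamma-activated site TTCNNNGAA from position -45 and the interferon-stimulated response element (GAAA, any 2 bases, GAAA) from position -34, which do not overlap.
Igtp promoter: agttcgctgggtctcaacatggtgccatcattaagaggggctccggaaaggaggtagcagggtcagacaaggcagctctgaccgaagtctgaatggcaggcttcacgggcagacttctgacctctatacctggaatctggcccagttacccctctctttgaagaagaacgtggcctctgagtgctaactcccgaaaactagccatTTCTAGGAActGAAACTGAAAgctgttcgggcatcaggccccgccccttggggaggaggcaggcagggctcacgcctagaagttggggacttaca
All 10 family members in the promoter table held the second motif, which was found in 3.49% of all windows, and 6 of the 10 held the first, found in 8.47%.

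Other interferon-driven lists gave no call in edgeR either. Of 22 antiviral genes, 12 class I and immunoproteasome genes and 11 class II genes, 0 passed in either direction, with median differences of -0.07, -0.13 and 0.52. At an unadjusted p under 0.05 the counts were 0, 1 and 1, and DESeq2 called 1, 1 and 5, the 5 class II genes being higher in TRUC. The effector genes overlapped between the models. Nos2, the inducible nitric oxide synthase, was at 642, 1143, 732 and 428 CPM in TRUC and 522, 656 and 459 CPM in the anti-CD40-labelled mice (0.43 ± 0.73, adjusted p 0.759). Ido1, which breaks down tryptophan, was at 171, 594, 254 and 49.8 CPM against 295, 474 and 154 CPM (-0.20 ± 1.19, adjusted p 0.944). For the CXCR3 ligands Cxcl9 and Cxcl10 the differences were -0.08 ± 0.89 and 0.65 ± 0.85 (adjusted p 0.973 and 0.673), and for Ifng 1.16 ± 1.30 (adjusted p 0.611). Il12b, the shared p40 subunit of interleukin-12 and interleukin-23, was at 3.61, 3.56, 3.76 and 1.79 CPM in TRUC and 0.658, 0.686 and 0.431 CPM without overlap but did not pass (2.42 ± 0.92, adjusted p 0.0958). Cell cycle genes (0 of 18), T cell genes (0 of 14) and B and plasma cell genes (0 of 12) gave no call in edgeR. Their counts at an unadjusted p under 0.05 were 2, 1 and 2, and those in DESeq2 6, 1 and 2.

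**Figure D4:**
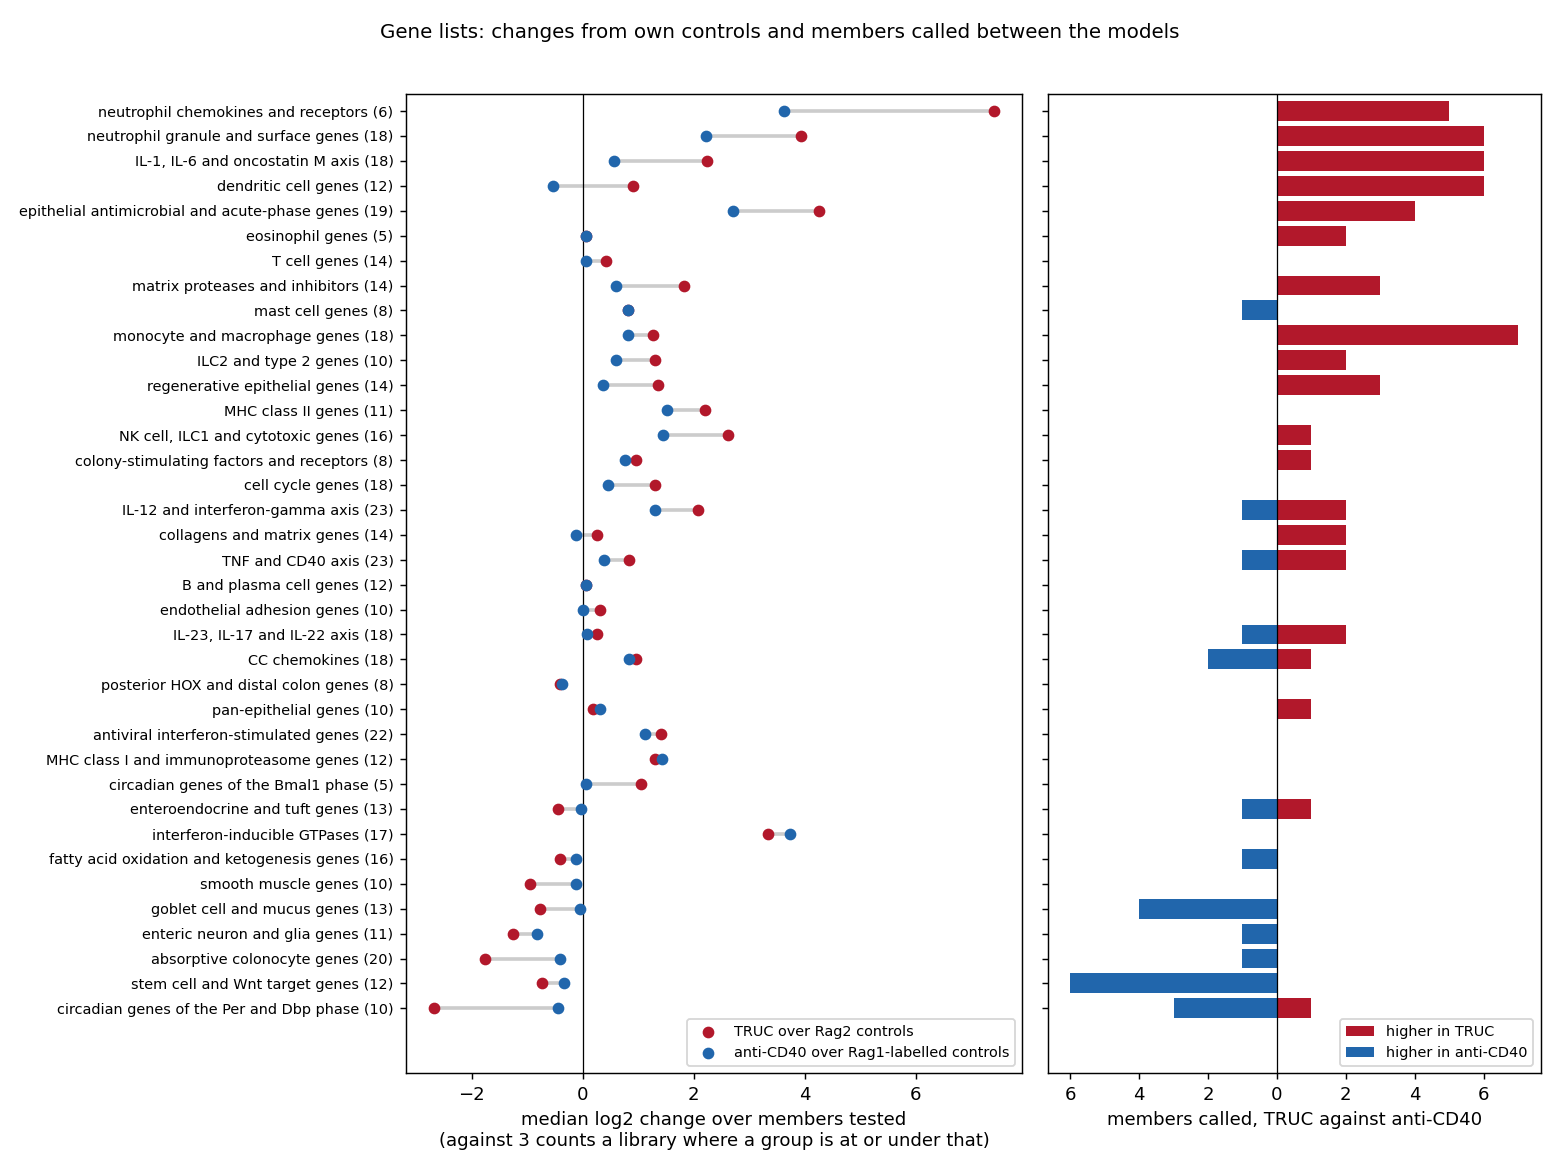
For each gene list, the median log2 change of its members from own controls in TRUC mice and in the anti-CD40-labelled mice (horizontal axis), with genes at the detection floor in the controls set at their bound, and the number of members called between the models. Neutrophil chemokines and receptors lie furthest apart, with 5 of 6 members higher in TRUC. Interferon-inducible GTPases lie at 3.35 and 3.73, with 0 of 17 called.

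The third CXCR3 ligand did not follow Cxcl9 and Cxcl10. Cxcl11 (chr5:92359544-92365485) was at 1.62, 2.31, 1.56 and 0.407 CPM in TRUC and 34.8, 27.6 and 11.6 CPM in the anti-CD40-labelled mice (-4.06 ± 0.90, adjusted p 0.00757), the largest difference in that direction among the genes named by size. Every anti-CD40-labelled mouse lay above every TRUC mouse, and the call held whichever mouse was left out (highest adjusted p 0.0282). The Rag2-/- controls were at 0.177, 0.0765 and 0.378 CPM and the Rag1-labelled controls at 0.0811, 0.295 and 0 CPM. Of the 50-base windows in its transcripts, 40.4% also occur in Gm2673, so its counts may miss reads that match both.

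Among 18 CC chemokines, Ccl22 and Ccl6 were also higher in the anti-CD40-labelled mice and Ccl8 was higher in TRUC. In all, 16.7% of the list was called, against a background of 9.08%. Ccl22, a product of activated dendritic cells that attracts CCR4-bearing cells, was at 3.47, 2.85, 4.03 and 2.85 CPM in TRUC and 9.86, 15.7 and 6.39 CPM in the anti-CD40-labelled mice (-1.69 ± 0.42, adjusted p 0.0146). Its call was lost without anti-CD40 mouse 7 (adjusted p 0.0691). Ccl6 was at 94.4 to 112 CPM against 171 to 226 CPM (-0.93 ± 0.14, adjusted p 0.000333), and the monocyte attractant Ccl8 at 31.8 to 60.2 CPM against 12.7 to 23.6 CPM (1.39 ± 0.41, adjusted p 0.0343). Ccl8 lost its call without mouse 8.

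Of 13 goblet cell and mucus genes, 4 were higher in the anti-CD40-labelled mice (Fcgbp, Clca1, Atoh1 and Bcas1, 30.8% against a background of 4.69%) and 0 were higher in TRUC, and their summed level was 9184 to 10637 CPM in TRUC and 12909 to 14776 CPM in the anti-CD40-labelled mice. Clca1, a secreted goblet cell protease of the mucus layer, was at 283, 77.9, 258 and 414 CPM in TRUC and 1422, 1203 and 1749.7 CPM in the anti-CD40-labelled mice (-2.50 ± 0.44, adjusted p 0.00119). It was at 3430.2 to 4502 CPM in Rag2-/- controls and 3871 to 5277 CPM in Rag1-labelled controls. Muc2, the main gel-forming mucin, did not separate them, at 835 to 1281 CPM and 1122 to 1407 CPM (-0.18 ± 0.25, adjusted p 0.695). Clca1 held whichever mouse was left out, and the other 3 did not pass without mouse 8 (adjusted p 0.166 for Fcgbp, 0.192 for Atoh1 and 0.0983 for Bcas1).

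Stem cell and Wnt target genes were higher in the anti-CD40-labelled mice in 6 of 12 cases (Ascl2, Axin2, Rnf43, Znrf3, Sox9 and Myc, 50% against a background of 4.69%), with a median difference of -0.64. The summed level of the list lay the other way, at 557 to 603 CPM in TRUC and 418 to 523 CPM in the anti-CD40-labelled mice, and Prom1, which took the most counts of the list in TRUC, did not pass (adjusted p 0.0756). Ascl2, the transcription factor of crypt base stem cells, was at 1.99, 1.25, 1.65 and 2.44 CPM in TRUC and 4.98, 4.46 and 7.18 CPM in the anti-CD40-labelled mice (-1.59 ± 0.45, adjusted p 0.0296). Axin2, a direct Wnt target, differed by -0.69 ± 0.17, and the Wnt receptor ligases Rnf43 and Znrf3 by -0.43 ± 0.12 and -0.90 ± 0.18. Lgr5, the best-known stem cell marker, was at 4.57, 3.91, 3.94 and 4.89 CPM against 6.95, 7.89 and 11.9 CPM and did not pass (-1.04 ± 0.47, adjusted p 0.161). All 6 calls were lost without anti-CD40 mouse 8, whose levels of muscle and neuron genes were the highest of its group, with adjusted p from 0.0641 for Znrf3 to 0.224 for Sox9. Their differences without it stayed negative, such as -0.57 for Axin2 and -1.35 for Ascl2. Ascl2 and Sox9 lost the call without any 1 of 5 of the 7 mice, and Myc without any 1 of 6.

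Genes of other epithelial cells were called singly. Gcg, which encodes glucagon-like peptides in enteroendocrine cells, was at 32.0, 30.2, 34.5 and 38.7 CPM in TRUC and 101, 89.3 and 111 CPM in the anti-CD40-labelled mice (-1.57 ± 0.24, adjusted p 0.0004), and held whichever mouse was left out. Avil, a tuft cell gene, was higher in TRUC (1.63 ± 0.34, adjusted p 0.00536). Gcg and Avil were the only calls among 13 enteroendocrine and tuft genes (15.4% against a background of 9.08%). Of the 13, 8 had a negative difference, and the median was -0.18. Of 20 absorptive colonocyte genes, the sodium-hydrogen exchanger Slc9a2 alone passed (-1.35 ± 0.37, adjusted p 0.0257), which is 5% against a background of 4.69%, and the list's median difference was -0.62. Slc9a2 lost its call without mouse 8 (adjusted p 0.149). Ppara, a regulator of fatty acid oxidation, was at 1.11, 0.979, 0.550 and 1.22 CPM in TRUC and 3.10, 2.06 and 3.73 CPM in the anti-CD40-labelled mice (-1.60 ± 0.29, adjusted p 0.00133). It was the only 1 of 16 fatty acid oxidation genes called (6.25% against a background of 4.69%).

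**Figure D5:**
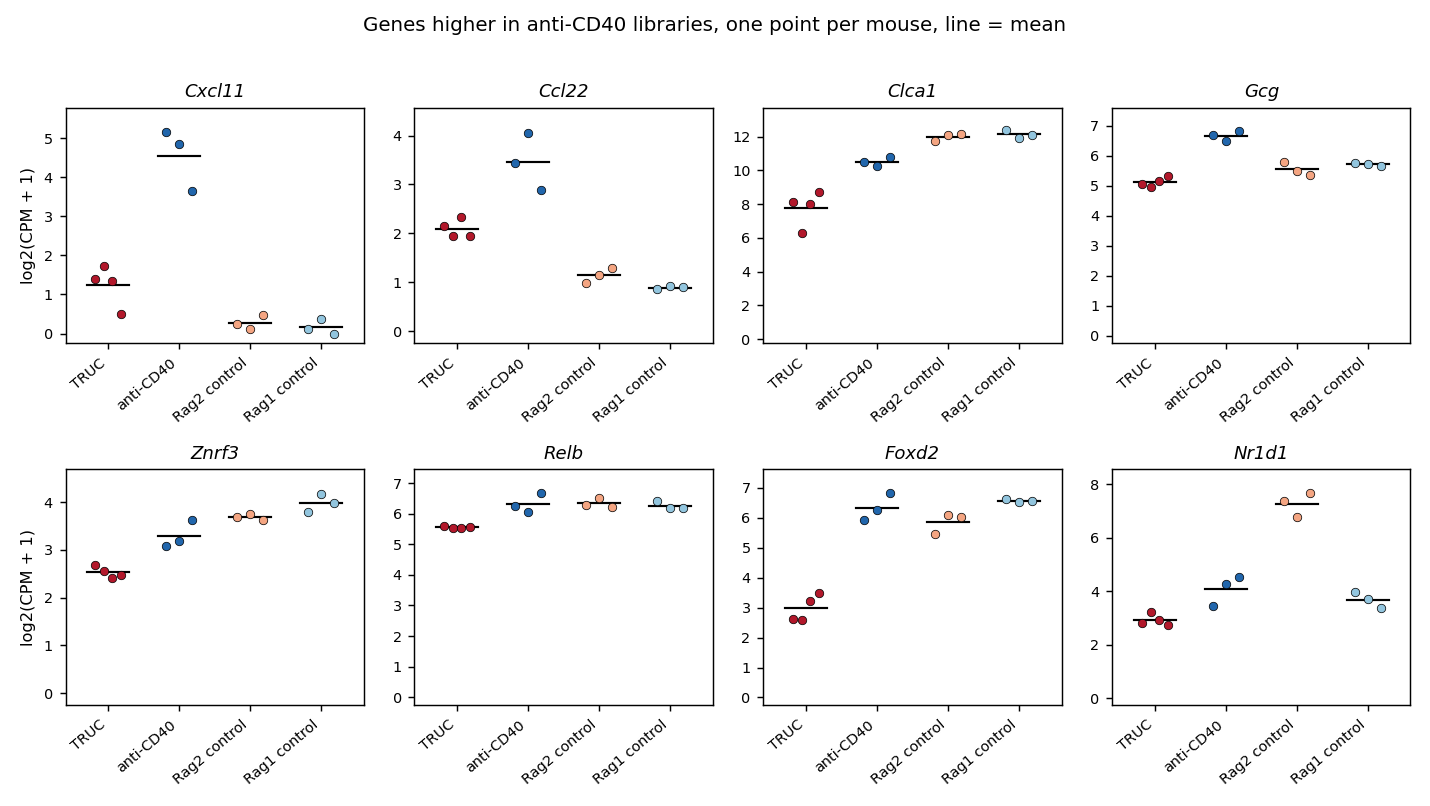
Levels of 8 genes higher in the anti-CD40-labelled mice than in TRUC mice, with the controls of both models, 1 panel per gene, log2(CPM + 1) on the vertical axis, 1 point per mouse and a line at each group's mean. Cxcl11, Ccl22, Clca1, Gcg, Znrf3, Relb and Foxd2 separate the models in every mouse, and Nr1d1 also differs between the untreated control groups.

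Of 14 regenerative epithelial genes, 3 were higher in TRUC (21.4% against a background of 4.39%) and 0 were lower. They were Anxa1 (1.46 ± 0.24, adjusted p 0.000668), Krt7 (1.19 ± 0.23, adjusted p 0.00291) and S100a6 (0.61 ± 0.14, adjusted p 0.00844). Anxa1, a resolution mediator, was at 943, 946, 855 and 637 CPM in TRUC and 294, 386 and 242 CPM in the anti-CD40-labelled mice. Krt18, a keratin of simple epithelium, was higher in TRUC (0.72 ± 0.12, adjusted p 0.000567). It was the only 1 of 10 pan-epithelial genes called (10% against a background of 4.39%). S100a6 lost its call without mouse 8, and the other 3 kept theirs. Serpinb11, Sprr2h and Cers3 were named by size. Serpinb11 was at 17.5, 29.2, 16.4 and 22.6 CPM against 0.470, 1.03 and 0.0718 CPM (5.38 ± 1.15, adjusted p 0.00858). Sprr2h, a cornified envelope precursor, was at 19.98, 16.3, 24.2 and 13.7 CPM against 0.282, 1.11 and 1.22 CPM (4.36 ± 0.78, adjusted p 0.00235). Cers3, a ceramide synthase of skin barrier lipids, was at 13.9, 12.1, 14.1 and 6.43 CPM against 0.845, 1.2004 and 0.287 CPM (3.92 ± 0.64, adjusted p 0.000639). Serpinb11 alone of these lost its call without mouse 8 (adjusted p 0.0653).

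Of 14 matrix proteases and inhibitors, Mmp2, Mmp10 and Plau were higher in TRUC (21.4% against a background of 4.39%). Mmp10, stromelysin 2, was at 18.7, 39.9, 25.6 and 10.7 CPM in TRUC and 2.63, 6.77 and 3.73 CPM in the anti-CD40-labelled mice (2.43 ± 0.67, adjusted p 0.0259). Mmp13, a collagenase, was at 9.85 to 26.2 CPM against 2.22 to 5.23 CPM and just missed the threshold (2.29 ± 0.76, adjusted p 0.0581). Mmp10 was lost without mouse 8, and Mmp2 (0.82 ± 0.22) without TRUC mouse 3 or anti-CD40 mouse 6. Plau, the urokinase gene (0.84 ± 0.26), was lost whichever of the 7 mice was left out. Of 14 collagen and matrix genes, the fibroblast genes Pdgfra (0.84 ± 0.20, adjusted p 0.0114) and Dcn (0.87 ± 0.22, adjusted p 0.0174) were higher in TRUC. That is 14.3% against a background of 4.39%. The 2 genes lost the call without anti-CD40 mouse 6, the lowest in muscle genes. Both kept the call without mouse 8 (adjusted p 0.0127 and 0.0413). Of 10 smooth muscle genes and 8 posterior HOX and distal colon genes, 0 were called by edgeR and 0 had an unadjusted p under 0.05, and DESeq2 called 0 and 1.

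Clock genes differed between the untreated controls as well. Nr1d1, a repressor in the circadian loop, was at 5.97, 8.45, 6.51 and 5.62 CPM in TRUC and 9.77, 18.2 and 22.4 CPM in the anti-CD40-labelled mice (-1.35 ± 0.40, adjusted p 0.0379). In the controls it was at 164, 108 and 204 CPM in Rag2-/- mice and 14.6, 12.2 and 9.29 CPM in Rag1-labelled mice, a wider gap than between the models and in the other direction (3.72 ± 0.45, adjusted p 0.000164). Nr1d2 (-1.12 ± 0.26) and Tef (-1.49 ± 0.37) were likewise higher in the anti-CD40-labelled mice, and Hlf (1.22 ± 0.33) was higher in TRUC. All 4 direct calls were lost without anti-CD40 mouse 8, with adjusted p of 0.229 for Nr1d1, 0.075 for Nr1d2, 0.135 for Tef and 0.0507 for Hlf. Of the 15 clock genes in both lists, 6 were called between the untreated controls, where 0.124% of all genes were. In the difference of changes 6 were called, against 1.1% of all genes. The labels give no time of day at which colons were taken.

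Among the genes named by size, several had no list. Foxd2, a forkhead factor, was at 5.09, 5.07, 8.25 and 10.3 CPM in TRUC and 60.1, 74.8 and 112 CPM in the anti-CD40-labelled mice (-3.53 ± 0.43, adjusted p 1.92e-05). Gabrp, a subunit of the receptor for gamma-aminobutyric acid, was at 1.62, 0.534, 0.733 and 0.814 CPM against 25.6, 8.23 and 8.18 CPM (-3.87 ± 0.62, adjusted p 0.000518). Zbtb16, which encodes PLZF, the factor of innate-like lymphocytes that also responds to glucocorticoids, was at 1.03, 1.07, 1.19 and 1.303 CPM against 6.95, 8.06 and 25.3 CPM (-3.54 ± 0.46, adjusted p 4.55e-05). Fkbp5, another glucocorticoid-induced gene, was at 17.99, 23.3, 23.9 and 26.5 CPM against 68.4, 92.2 and 95.1 CPM (-1.89 ± 0.38, adjusted p 0.00388). These 4 genes passed whichever mouse was left out and in the difference of changes. The mucosal pentraxins Mptx1 (-3.33 ± 1.04) and Mptx2 (-3.04 ± 0.49), the sulfotransferase Sult1a1 (-2.54 ± 0.41), Fam189a2 (-2.44 ± 0.55) and the RNA-binding protein gene Igf2bp2 (-2.37 ± 0.60) were also higher in the anti-CD40-labelled mice. Mptx1, Fam189a2 and Igf2bp2 lost the call without mouse 8. Mptx1 and Mptx2 share sequence with each other.

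Of the genes that passed in both the direct comparison and the difference of changes, those with the largest differences higher in TRUC included Alpl, tissue-nonspecific alkaline phosphatase (1.95 ± 0.35), Lpl, lipoprotein lipase (1.92 ± 0.31), Cxcl14, a chemokine of epithelium (1.58 ± 0.18), Akr1b8, an aldo-keto reductase (1.51 ± 0.21), Arl2bp (2.24 ± 0.13), Arhgap19 (2.17 ± 0.20), Rab31 (1.80 ± 0.26), Abca5 (1.79 ± 0.25) and Sh3kbp1 (1.60 ± 0.20). Lpl was at 55.5, 80.1, 78.3 and 43.0 CPM in TRUC and 10.6, 23.8 and 16.3 CPM in the anti-CD40-labelled mice. In the other direction they included Sectm1b (-2.29 ± 0.31), Arl4d (-1.86 ± 0.31), Hdac11 (-1.68 ± 0.26) and Tfcp2l1 (-1.55 ± 0.25). All 13 kept the direct call whichever mouse was left out.

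The most significant protein-coding gene of all was Rpl26, a ribosomal protein gene at chr11:68901583-68906989. It was at 364, 364, 442 and 381 CPM in TRUC and 12.4, 10.7 and 10.4 CPM in the anti-CD40-labelled mice (5.12 ± 0.15, adjusted p 1.18e-17). Gm15772, a processed copy at chr5:3236431-3236868, had the mirror pattern, at 15.3, 14.2, 17.8 and 14.7 CPM in TRUC and 386, 363 and 338 CPM (-4.54 ± 0.13). Summed over both, the levels were 379 to 460 CPM in TRUC and 348 to 398 CPM in the anti-CD40-labelled mice, and the controls of both models had Rpl26 at 9.28 to 14.7 CPM. Since 74.3% of the 50-base windows of Gm15772 also occur in Rpl26, the split between them is uncertain and is not read as a change of the ribosomal protein. Pira2 (4.32 ± 0.50) likewise shares 93% of its windows with relatives.

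Rpl26 lies on chromosome 11, as does Tbx21. On that chromosome 179 of 1471 tested genes were called (12.2%), against 9.08% of all genes and 8.82% of genes elsewhere, and 37 (2.52%) were called in the difference of changes, against 1.1% of all genes. Of 30 genes with an adjusted p under 0.0001 in the direct comparison, 9 lay there, at 3.26 to 52.6 Mb from Tbx21. They included Ublcp1 (1.198 log2 higher in TRUC), Mapk7 (-1.10) and Sectm1b (-2.29). Tbx21 was deleted by label only in TRUC mice. This chromosome was looked at after values were seen, and why more of its genes were called was not tested.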

How the data were processed

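RNA was from segments of whole colon, selected for poly-A and made into libraries without strand information. Per the submitters' processing notes the authors trimmed reads with Trimmomatic, aligned them to GRCm38 with HISAT2 and counted reads per gene with HTSeq; versions are not given in the sources used here. The authors deposited these raw counts, unnormalized, for 54532 genes and 29 mice in 9 groups; 92 spike-in rows held 0 counts and were left out. Without strand, overlapping and antisense genes cannot be told apart.

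Genes averaging 3 counts or more across the 29 mice (18616) were fitted in 1 model of 9 groups with edgeR 4.0.16 (R 4.3.3), TMM scaling and the quasi-likelihood F test, two-sided, with p-values adjusted by Benjamini and Hochberg's method across every tested gene and a threshold of 0.05. The contrasts were TRUC minus anti-CD40, the difference of the changes from own controls, Rag2-/- minus Rag1-labelled controls, and each model minus its controls. Levels are CPM on TMM-scaled libraries. The calls were tested on counts simulated with known changes in TRUC. Of 2-fold changes 62% were called between TRUC and anti-CD40, and of 4-fold changes 91%. Of 157 genes called there, 4 had been left unchanged. A gene that was not called may therefore still differ. Intervals cover counting error only. Fitted values against libraries at 3 counts or fewer depend on the prior count. Nothing in the labels says that mice came from separate cages or litters, so p-values measure only spread between mice. That spread was estimated over all 29 mice, and fits of only the groups compared called more genes.

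Mice were grouped by label. The gene lists and their members were chosen with earlier results of these data known. Besides members of the lists, genes were named by size: the 10 largest log2 fold changes in each direction among genes called, without overlap between groups, with a mean of at least 10 CPM in the higher group and a gene name that is not a clone or pseudogene name; the same among genes also called in the difference of changes with a control log2 difference under 1; and up to 5 in each direction also called between controls. Gm15772, other genes of chromosome 11 and the clock controls were named after their values were seen. Alternatives were RLE and upper quartile scaling, other filters, an adjusted p of 0.01, fits of only the groups compared, a replicate block, DESeq2 1.42.0 and leaving out each mouse. Promoter sequences are RefSeq's (GRCm38.p6), and shared sequence was counted as 50-base windows of GENCODE M21 transcripts found in another gene.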

Additional observations from a re-analysis of the deposited data

Results flagged for a closer look

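In 5 of 112 named genes tested, 1 TRUC mouse lay far from the other 3 by Dixon's test, where the gap to the nearest mouse is divided by the range of the group. Adgre1 was at 23.2 CPM in mouse 5 against 32.0 CPM in the next lowest (gap over range 0.938), and C1qa at 142 CPM in the same mouse against 179 CPM (0.874). Arl2bp was at 105 CPM in mouse 4 against 94.7 CPM (0.963), Trem2 at 7.56 CPM in mouse 3 against 5.29 CPM (0.839), and Xist at 411 CPM in mouse 5 against 365 CPM (0.965). Chance flags about 1 in 20 groups, and 5 of 112 is close to that rate.

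Of the named genes, 33 differed between the models in their change from own controls, with an adjusted p under 0.05 in a test of the difference itself. Values are log2, the change in TRUC minus that in the anti-CD40-labelled mice. Among antimicrobial, myeloid and cytokine genes these were 9.98 for Reg3b, 7.85 for Reg3g, 3.12 for Cd209a, 2.21 for Clec9a, 1.51 for Plau, 1.26 for Il1r1, 1.19 for Cxcl14 and -0.89 for Relb. Reg3b was at 0.368 to 28.7 CPM in the Rag1-labelled controls and 0.0765 to 0.266 CPM in the Rag2-/- controls, where Reg3b and Cers3 had 3 counts or fewer, so that these fitted values depend on the prior count. Other genes whose change was more positive in TRUC were Cers3 (5.35), Arhgap19 (2.60), Arl2bp (2.54), Lpl (2.37), Alpl (2.21), Akr1b8 (2.00), Abca5 (1.53), Rab31 (1.47) and Sh3kbp1 (1.41). Those whose change was more positive in the anti-CD40-labelled mice were Zbtb16 (-4.46), Gabrp (-4.29), Mptx2 (-3.00), Foxd2 (-2.83), Fkbp5 (-2.57), Sectm1b (-2.44), Sult1a1 (-2.42), Arl4d (-2.24), Hdac11 (-1.92), Ppara (-1.60) and Tfcp2l1 (-1.50). For the clock genes Nr1d1 (-5.07), Tef (-3.45) and Nr1d2 (-3.25), the untreated controls differed by 3.72, 1.96 and 2.13. Rpl26 (4.69) and Gm15772 (-4.70) share sequence and moved in opposite directions.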

How the results depend on the processing

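Of the 112 named genes, 0 reversed direction under any alternative, and of their values under all alternatives 1318 kept their side of the threshold and 362 lost the call. Only 49 of the 112 kept the direct call whichever mouse was left out. Leaving out 1 mouse at a time gave 203 to 856 genes higher in TRUC and 183 to 949 higher in the anti-CD40-labelled mice in the direct comparison. The difference of changes then gave 26 to 135 and 32 to 167, and the comparison of controls 3 to 73 higher in Rag2-/- and 3 to 72 higher in Rag1-labelled mice. Without anti-CD40 mouse 8, 386 genes were called, of which 368 were also called with it. Without that mouse the calls among neutrophil chemokines and receptors fell from 5 to 2, and among neutrophil genes from 6 to 1. Those among dendritic cell genes fell from 6 to 3, and among Wnt targets from 6 to 0. The cause was not tested.

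An adjusted p of 0.01 left 218 and 234 genes in the direct comparison, 19 and 22 in the difference of changes, and 4 and 4 between controls. Fitting only the groups of each comparison gave 1236 and 1473, 687 and 565, and 217 and 222. DESeq2 gave 1533 and 1760, 964 and 824, and 452 and 559. Between controls, RLE scaling gave 23 and upper quartile scaling 5 genes higher in Rag1-labelled mice, and no filter on low counts gave 4 and 6. The median of all genes moved from 0.01 to 0.02 with RLE and 0 with upper quartile scaling.

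TRUC and anti-CD40-labelled mice share no replicate number, so the direct comparison is not paired and a replicate block can draw only on the other groups. With the block the counts were 65 and 18 in the direct comparison, 3 and 4 in the difference of changes, and 3 and 7 between controls. Same-numbered mice of different groups did not deviate together (correlations of -0.175 to 0.033 over 15416 genes), and the samples share only a number.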

Other observations

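Several genes passed in the direct comparison outside the programmes described. Il18rap, the accessory chain of the interleukin-18 receptor, was at 7.45, 16.01, 9.07 and 3.75 CPM in TRUC and 2.07, 2.49 and 1.72 CPM in the anti-CD40-labelled mice (2.11 ± 0.58, adjusted p 0.0257), and lost its call without mouse 8. With Tbx21 it made up the calls higher in TRUC among 23 genes of the interleukin-12 and interferon-gamma axis. With Cxcl11, higher in the anti-CD40-labelled mice, 13.0% of that list was called, against a background of 9.08%. Tbx21 was also the only 1 of 16 natural killer cell, group 1 innate lymphoid cell and cytotoxic genes called (6.25% against a background of 4.39%). It is the gene deleted by label in TRUC mice, and its calls in both lists are not read as a change of those programmes. It too lost its call without mouse 8 (adjusted p 0.0706).

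Plet1, a gene of progenitor epithelium, was at 338, 397, 369 and 328 CPM in TRUC and 82.1, 163 and 174 CPM in the anti-CD40-labelled mice (1.36 ± 0.39, adjusted p 0.0299), and lost its call without mouse 8. Prss2, a pancreatic trypsinogen, was at 1.55, 4.27, 2.11 and 0.977 CPM against 0, 0.171 and 0.359 CPM (3.48 ± 0.83, adjusted p 0.0129), against 0 to 0.0885 CPM in Rag2-/- controls and 0 to 0.567 CPM in Rag1-labelled controls. It lost the call without anti-CD40 mouse 6. Xist was at 363, 364, 365 and 411 CPM in TRUC and 593, 453 and 572 CPM in the anti-CD40-labelled mice (-0.52 ± 0.16, adjusted p 0.0395), and lost its call without mouse 8 (adjusted p 0.181). The 4 other sex-linked genes of that list were too low to test.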
